A study of Homo sapiens with 2 samples.

Results

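ABC transporters are a family of membrane proteins that couple ATP binding and hydrolysis to the movement of drugs, lipids, peptides or metabolites, and the copper pumps ATP7A and ATP7B are P-type ATPases that move copper into the secretory pathway or out of the cell. These genes were selected by symbol: every probe set annotated to a single gene named ABCA to ABCG followed by a digit, ATP7A or ATP7B. The array carried 58 such probe sets of 22283, for 37 genes of the 11963 that had a probe set with 1 symbol; 35 were ABC genes, 1 of them the pseudogene ABCA11P, and 2 were copper pumps. RNA came from L-540, an established Hodgkin lymphoma cell line, as 1 untreated culture and 1 culture treated with vorinostat, a hydroxamate inhibitor of histone deacetylases. Dose and duration were not given in the labels. Each group held 1 Affymetrix HG_U133A array, so no difference below has a replicate check, no test was run, and ratios describe this pair of arrays.

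An ABC protein is built from nucleotide-binding domains and membrane-spanning domains; some chains carry a single set and pair up, and others, the full transporters, carry both sets in one chain. The ABCA and ABCG subfamilies are known mainly for lipids and sterols, ABCB and ABCC for drugs, conjugates and organelle transport, and ABCD for peroxisomal and lysosomal import or export. ABCE and ABCF proteins have no membrane domain and act on ribosomes. In lymphoid tumours the family is best known for drug efflux by ABCB1 (P-glycoprotein), ABCC1 and ABCG2.

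The values were MAS5 signals, linear intensities per probe set. A floor of 68.9 signal units was set, the 40th percentile of both arrays together, and a probe set at or under it on both arrays was not measured. Each array had a trimmed mean of 500.2, and 32 of the 58 member probe sets exceeded the floor when untreated and 31 after treatment. Of the 8 Hodgkin cell markers, 7 were above the floor on each array, TNFRSF8 (CD30) among them; CCL17 was under it. Among T cell markers CD247, CD2 and CD4 were above the floor on both arrays and CD3D, CD3G and CD7 under it on both. Of 4 B cell markers 1 exceeded the floor on each array (PAX5), and of 7 monocyte and granulocyte markers 2 untreated and 1 treated. Several identity markers were lower after treatment, CD247 by 4.74-fold, BATF3 by 3.40-fold, TNFRSF8 by 3.34-fold and PAX5 by 2.46-fold. CD3E had 138.7 untreated and was under the floor after treatment, at least 2.01-fold lower. The shift was not uniform: the Hodgkin cell markers GATA3 and IRF4 were 1.33-fold and 1.22-fold higher, and CD4 was 1.14-fold lower. The part of these shifts in the results below was not tested. Of 6 epithelial and liver markers, from tissues rich in ABC transporters, 1 exceeded the floor when untreated and 2 after treatment. A probe set's signal can be compared between the arrays but not with that of another probe set, so no gene is ranked by level here.

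Promoter sequences are shown for the 4 members on which the results turn: ABCD3 and ABCA3, the members at least 2-fold apart, ATP7A, which was 2-fold apart on one of its probe sets, and ABCB1, the drug efflux pump. Each is the stretch of 250 bases upstream of a RefSeq transcription start on GRCh38.p14, 5′ to 3′ on the strand of the gene. Capitals mark matches, on either strand, to the CCAAT box (spelled CCAAT), the GC box (spelled GGGCGG), the TATA box (spelled TATAAA) or the E-box (spelled CACGTG).
ABCD3, chr1:94418139-94418388, plus strand: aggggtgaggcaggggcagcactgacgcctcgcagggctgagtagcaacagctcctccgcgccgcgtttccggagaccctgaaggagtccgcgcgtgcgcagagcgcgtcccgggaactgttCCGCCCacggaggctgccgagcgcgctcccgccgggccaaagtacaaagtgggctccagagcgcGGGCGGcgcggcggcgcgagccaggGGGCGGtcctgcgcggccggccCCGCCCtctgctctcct
ATP7A, chrX:77910443-77910692, plus strand: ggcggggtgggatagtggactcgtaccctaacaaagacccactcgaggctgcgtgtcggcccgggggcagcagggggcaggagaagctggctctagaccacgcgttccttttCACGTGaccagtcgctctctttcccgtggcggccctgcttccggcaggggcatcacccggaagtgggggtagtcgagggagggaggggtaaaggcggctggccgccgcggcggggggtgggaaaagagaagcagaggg
ABCB1, chr7:87600885-87601134, minus strand: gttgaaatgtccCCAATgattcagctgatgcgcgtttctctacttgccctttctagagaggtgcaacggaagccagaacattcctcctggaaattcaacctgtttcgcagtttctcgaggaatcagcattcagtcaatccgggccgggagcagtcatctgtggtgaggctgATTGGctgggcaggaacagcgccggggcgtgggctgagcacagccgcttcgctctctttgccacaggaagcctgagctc
ABCA3, chr16:2340729-2340978, minus strand: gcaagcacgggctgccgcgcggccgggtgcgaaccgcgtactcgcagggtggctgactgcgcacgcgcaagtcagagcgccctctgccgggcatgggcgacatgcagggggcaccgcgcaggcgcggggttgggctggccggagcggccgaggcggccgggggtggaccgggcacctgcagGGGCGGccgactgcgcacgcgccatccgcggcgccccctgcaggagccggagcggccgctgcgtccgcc

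The window of ABCD3 held 4 GC boxes and none of the other motifs, and 74.4% of its bases were G or C. That of ABCA3 held 1 GC box in 79.2% G or C. The ATP7A window held 1 E-box, the palindrome that basic helix-loop-helix factors such as MYC and TFEB bind, and 67.2% G or C. The ABCB1 window, at the more downstream of its 2 listed starts, held 2 CCAAT boxes, 1 on each strand, in 55.6% G or C; the inverted CCAAT box of this promoter is known as a site of the factor NF-Y. RefSeq windows were matched for 29 of the 37 genes, 43 windows in all, since some genes have several starts. A GC box was present in 25 of the 43 (58.1%) and in 42.6% of all 35116 windows of this length, and an E-box in 9 (20.9%) and 6.34%. A CCAAT box was found in 11 (25.6%, against 32.0%) and a TATA box in 4 (9.30%, against 10.7%). The median share of G and C was 64% over the member windows and 58% over all windows. Some windows of ABCG2 and of ATP7B overlap, so stretches of their sequence enter these counts more than once. The matches are descriptions of these letters, and no binding was measured.

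Of the 37 genes, 23 had a measured probe set and 14 were under the floor on both arrays. After treatment ABCD3 was the 1 member of 23 that was 2-fold higher or more and ABCA3 the 1 that was as much lower, and 21 lay within 2-fold. Over all 8277 measured genes the shares past 2-fold were 3.77% on the higher and 5.12% on the lower side. At 1.5-fold, 4 members were higher (ABCD3, ATP7A, ABCB1 and ABCF3) and 2 lower (ABCA3 and ABCG2), against 12.7% and 15.5% of all measured genes. At 2-fold, the members' share of 1 in 23 on each side is near the background. The median log2 ratio of the 23 was -0.01, and that of all measured genes -0.04 with an SD over genes of 0.59; members under the floor on 1 array entered at their bound. Scaling to equal array medians raised the median of all genes by 0.12, and of the genes past 2-fold 58.8% were then higher, against 42.4% as deposited. The same 2 members were past 2-fold under that scaling.

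**Figure D1:**
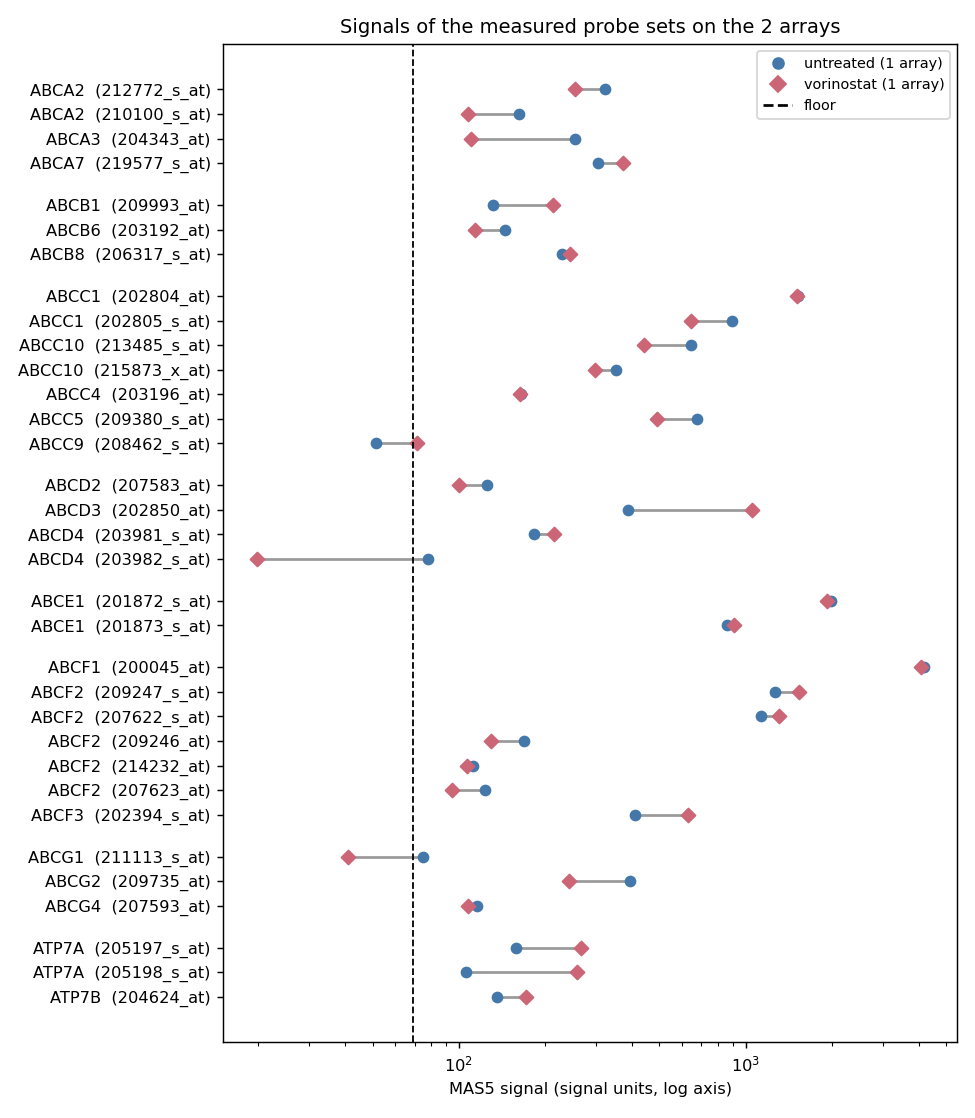
MAS5 signal (log axis) of the 33 member probe sets above the floor on at least 1 array, untreated (circles) and vorinostat (diamonds), 1 array each, grouped by subfamily; the dashed line is the floor of 68.9. The widest gaps between values above the floor are those of ABCD3, ABCA3 and a probe set of ATP7A, and the low treated signals of ABCD4 and ABCG1 lie left of the floor.

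**Figure D2:**
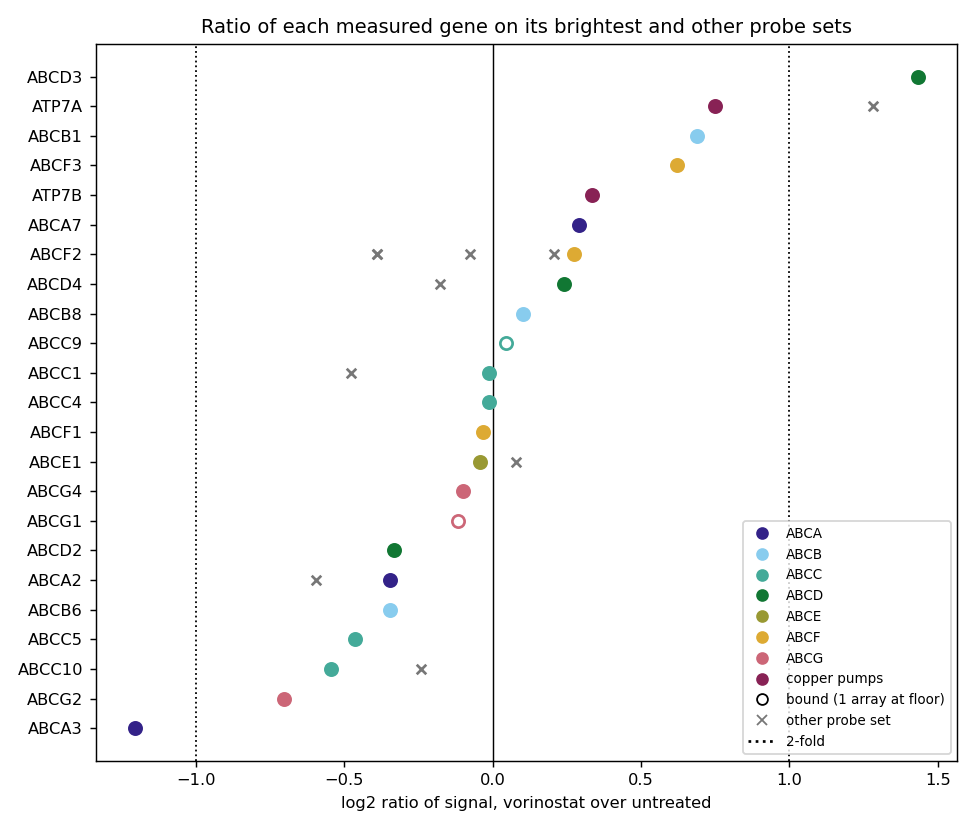
Log2 ratio of signal (vorinostat over untreated) of the 23 measured genes on the brightest probe set (filled circles; open circles are bounds with 1 array at the floor) and on their other measured probe sets (crosses), with dotted lines at 2-fold. ABCD3 (1.43) and ABCA3 (-1.20) lie outside the lines; the crosses show how far probe sets of 1 gene differ, most for ABCF2 and ATP7A.

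The peroxisomal and lysosomal subfamily ABCD held the highest ratio of the family. ABCD3, a peroxisomal transporter that imports branched-chain and bile acid intermediates as coenzyme A esters, had a signal of 388 untreated and 1048 treated. It was 2.70-fold higher, the highest ratio of the 23 members and rank 87 from the top among 8277 genes. It is read by 1 probe set, whose suffix does not mark shared sequence. ABCD2, which imports very-long-chain acyl-CoA, had 126 and 99.8, 1.26-fold lower. ABCD4, a lysosomal protein needed for release of cobalamin, had 182 and 215 on its brightest probe set (1.18-fold higher). Its second probe set had 77.8 and 19.7, the treated value under the floor, a bound of at least 1.13-fold lower. The direction of ABCD4 is therefore not settled by its probe sets, whereas ABCD3 stands apart from both relatives.

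The proteins that place ABCD3 in the peroxisome were read from a list of 12 peroxisome import and oxidation genes, of which 10 were measured; 1 was past 2-fold on the higher side, 0 on the lower, and the median log2 ratio was 0.20. PEX3, the peroxisomal membrane anchor for newly made membrane proteins, had 512 and 1401 (2.74-fold higher), and its other measured probe set had a log2 ratio of 1.76. PEX19, the soluble chaperone that delivers ABCD3 to PEX3, was named after its values were seen. It had 727 and 816 on its brightest probe set, 1.12-fold higher, and a log2 ratio of 0.61 on its other measured one. PEX14, of the matrix protein docking complex, was 1.72-fold lower. The beta-oxidation enzyme gene HSD17B4 was 1.68-fold higher and the acyl-CoA synthetase gene ACSL1 1.63-fold higher. PEX3 was the one gene of this list whose ratio was as large as that of ABCD3.

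Of 10 ABCA genes, full transporters known mainly for lipids apart from the pseudogene, 3 were measured. ABCA3, the phospholipid transporter of lamellar bodies and other lysosome-related organelles, had 254 untreated and 110.3 treated. It was 2.30-fold lower, rank 265 from the bottom among 8277 genes, on its single probe set. ABCA2, an endosomal and lysosomal lipid transporter, had 324 and 255 on its brightest probe set, 1.27-fold lower, and 162 and 108 on its second, 1.51-fold lower. ABCA7, linked to phospholipid transport and phagocytosis, had 305 and 373, 1.22-fold higher. ABCA2 and ABCA3 were thus lower on each measured probe set and ABCA7 was not. The other 7, ABCA1, ABCA4, ABCA5, ABCA6, ABCA8, ABCA12 and ABCA11P, were under the floor on both arrays; among them is ABCA1, the main exporter of cellular cholesterol, with a highest signal of 43.5 over its 3 probe sets.

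The ABCG transporters were lower or flat. ABCG2, the breast cancer resistance protein that exports drugs and urate, had 393 and 242, 1.63-fold lower on its single probe set. ABCG4, a sterol exporter best known from brain, had 115 and 107, 1.07-fold lower, a sign that turned under each of the 3 scalings tried. ABCG1, which passes sterols to lipoprotein particles, had 74.7 and 41.1 on 1 probe set; the treated value was under the floor, a bound of at least 1.08-fold lower. Lower floors left more of that difference, with a log2 ratio of -0.86 at the 25th percentile. Its other probe set and that of ABCG5, an intestinal and hepatic sterol exporter, were under the floor on both arrays. ABCG2 was the one ABCG member above the floor on both arrays with a ratio beyond 1.5-fold, and with equal medians its log2 ratio of -0.57 fell short of 1.5-fold.

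Regulators and acceptors of lipid efflux were given by 12 measured genes of a list of 16, of which 2 were past 2-fold on the higher side and 0 on the lower (median 0.16). The lysosomal cholesterol transporter gene NPC1 was 2.46-fold higher and MYLIP, an LXR target that degrades the LDL receptor, had 760.1 and 1849 (2.43-fold higher). LPCAT3, an LXR-driven phospholipid remodelling gene, had 172 and 301 (1.75-fold higher) by its brightest probe set but a log2 ratio of -0.87 by its other one, and RXRB was 1.73-fold lower. Among the members that LXR is known to induce are ABCA1, which was under the floor on both arrays, and ABCG1, under it on the treated one.

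The ABCB subfamily held the drug pump ABCB1, whose signal was 132 untreated and 212 treated, 1.61-fold higher on its single measured probe set. ABCB6, which carries porphyrins, had 145 and 114 on 1 probe set, 1.27-fold lower, and its other probe set was under the floor. ABCB8, a mitochondrial transporter, had 228 and 244, 1.07-fold higher. ABCB4, ABCB9 and ABCB11 (a phosphatidylcholine floppase, a lysosomal peptide transporter and the bile salt export pump) were under the floor on both arrays. ABCB1 was thus the member of this subfamily farthest from its untreated value, and it stayed short of 2-fold.

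Of 5 measured ABCC genes, ABCC1 and ABCC4 were nearly flat on their brightest probe sets, ABCC5 and ABCC10 were lower and ABCC9, near the floor, was higher. ABCC1, an exporter of glutathione conjugates and drugs, had 1519 and 1507 on its brightest probe set, 1.01-fold lower, and 893 and 642 on its second, 1.39-fold lower. ABCC4, which exports cyclic nucleotides and conjugates, had 164 and 163. ABCC5, its relative, had 675 and 490.2, 1.38-fold lower. ABCC10 had 641 and 440.1 on its brightest probe set, 1.46-fold lower, and 353 and 299 on its second, 1.18-fold lower. ABCC9, the regulatory subunit of an ATP-sensitive potassium channel, had 51.4 and 71.1 on 1 of its 3 probe sets, a bound of at least 1.03-fold higher. With the floor at the 25th percentile its log2 ratio was 0.47. The other probe sets of ABCC9 were under the floor on both arrays. No probe set of ABCC1, ABCC5 or ABCC10 was higher in the treated array; with equal medians the brightest one of ABCC1 had a log2 ratio of 0.12, and ABCC4 turned sign under each scaling. ABCC2 and ABCC3, hepatic conjugate exporters, and the pancreatic channel regulator ABCC8 were under the floor.

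Grouped by role, the 8 drug and conjugate efflux genes had 6 measured members, with a median log2 ratio of -0.24. Of these 0 were at least 2-fold apart, 1 was 1.5-fold higher (ABCB1) and 1 was 1.5-fold lower (ABCG2, a call lost with equal medians). Over all measured genes 12.7% were 1.5-fold higher and 15.5% lower, so 1 of 6 on each side is near the background. ABCC1, ABCC4, ABCC5 and ABCC10 lay between ABCB1 and ABCG2. Genes that feed or control this efflux were measured beside these members. In the glutathione list 14 of 17 genes were measured, 1 was at least 2-fold higher and 0 lower (median -0.14): GCLC, of glutathione synthesis, had 237 and 476 (2.01-fold), with a log2 ratio of 0.41 on its other probe set. The conjugating enzyme genes MGST2, GSTZ1 and GSTP1 were 1.65-fold, 1.37-fold and 1.24-fold lower.

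Of 13 measured regulators of xenobiotic genes and of ABCB1, 1 was at least 2-fold higher, 1 lower and 11 neither (median -0.12, and 0.01 with equal medians, where 0 were lower). AHR, the aryl hydrocarbon receptor, had 116 and 384 (3.31-fold higher). NFYC, a subunit of NF-Y, had 969.9 and 471 (2.06-fold lower by its brightest probe set), and all 4 of its measured probe sets went down. The other NF-Y subunit genes, named after their values were seen, lay within 2-fold on their brightest probe sets. NFYA was 1.22-fold higher on its brightest one, and its 4 measured probe sets had log2 ratios from 0.06 to 0.91. The 3 measured probe sets of NFYB had log2 ratios from -0.22 to 0.70. HIF1A was 1.76-fold higher and SP3 1.45-fold lower.

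**Figure D3:**
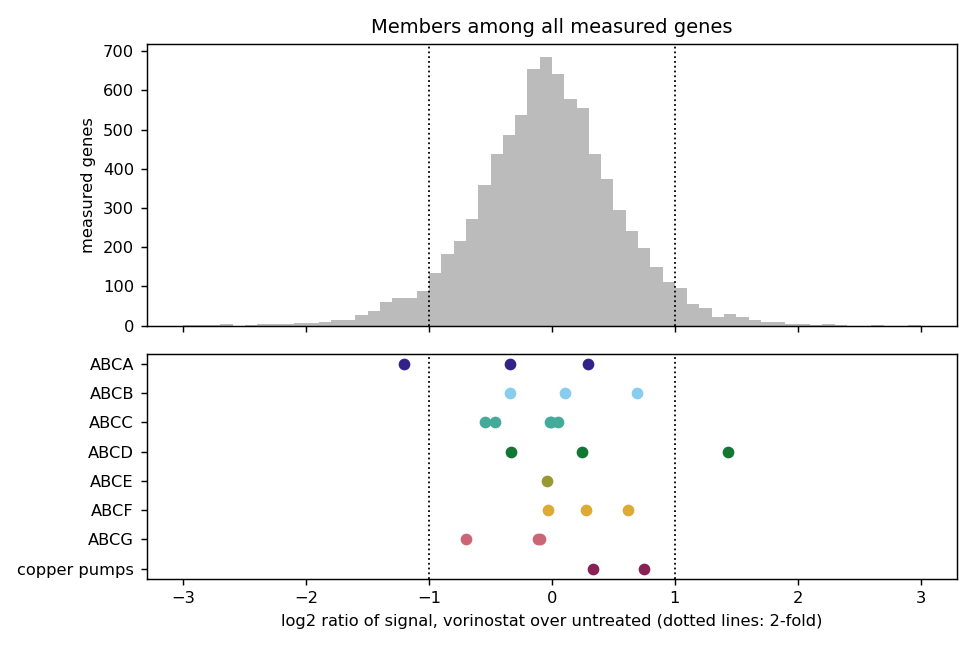
Upper panel, number of measured genes by log2 ratio of signal (vorinostat over untreated) over 8277 genes; lower panel, the 23 measured members by subfamily, with dotted lines at 2-fold. Most members fall in the body of the distribution, with ABCD3 to the right and ABCA3 to the left of the lines.

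Of the members that act on ribosomes, ABCE1 and ABCF1 were nearly flat and ABCF3 was higher. ABCE1, which splits ribosomes after termination, had 1974 and 1917 (1.03-fold lower) and 859 and 907 (1.06-fold higher) on its probe sets. ABCF1, linked to translation initiation, had 4181 and 4084, 1.02-fold lower; with equal medians its log2 ratio was 0.10 and that of the brightest ABCE1 probe set 0.09. ABCF2 was read by 5 probe sets: the brightest had 1267 and 1533 (1.21-fold higher) and the next 1128 and 1301 (1.15-fold higher). The other 3 were 1.06-fold to 1.31-fold lower, at signals between 94.4 and 169. ABCF3 had 409.7 and 629.9, 1.54-fold higher on its single probe set, the member of this group farthest from its untreated value. Of 8 measured partners in ribosome recycling and initiation, 0 were at least 2-fold apart (median 0.27); EIF2S1 was 1.48-fold higher, EIF2AK2 1.41-fold lower, and PELO and HBS1L, which work with ABCE1 on stalled ribosomes, 1.36-fold and 1.29-fold higher.

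Both copper pumps were higher in the treated array. ATP7A, the pump mutated in Menkes disease, had 158 and 266 on its brightest probe set, 1.68-fold higher, and 106 and 257 on its second, 2.43-fold higher. Those probe sets carry a suffix for shared sequence and gave log2 ratios of 0.75 and 1.28. ATP7B, the pump mutated in Wilson disease, had 136 and 171, 1.26-fold higher. ATP7A passed 2-fold when its probe sets were summarised by their median (log2 ratio of 1.01) and not on its brightest one. Both genes kept their sign in each of 8 alternative settings that measured them.

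Copper uptake, carriage and storage genes were taken from a list of 19, of which 15 were measured. Of these 2 were at least 2-fold higher, 1 lower and 12 neither, with a median of 0.59. At 1.5-fold 9 were higher and 3 lower, where 12.7% and 15.5% of all measured genes were. The list holds metallothionein and antioxidant genes whose higher signals in these arrays were known when it was written, so its median is no independent sign of direction. GLRX, a glutaredoxin that acts on ATP7A and ATP7B, had 227 and 945 (4.17-fold higher), and its second probe set gave a log2 ratio of 1.84. COX11, which delivers copper to cytochrome oxidase, had 1590 and 3285 (2.07-fold higher), with a log2 ratio of 0.82, short of 2-fold, on its other probe set. XIAP, a caspase inhibitor that binds copper, had 197 and 77.4 (2.55-fold lower), with a bound of -0.63 in log2 ratio by its other probe set, and MTF1, a metal-responsive factor, was 1.84-fold higher. Named after their values were seen, the copper importer gene SLC31A1 had 123 and 202 (1.64-fold higher) and ATOX1, the chaperone that hands copper to both pumps, had 855 and 1397 (1.63-fold higher). Other genes of the list went the other way, named likewise after their values were seen: STEAP3 was 1.56-fold, APP 1.54-fold and SCO2 1.26-fold lower, with a log2 ratio of 0.28 on the other probe set of APP. Without shared-sequence probe sets 8 genes of the list were measured, 4 of them at least 1.5-fold higher and 1 lower. With the median over probe sets, 1 of the 15 measured genes was at least 2-fold higher and 0 lower.

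**Figure D4:**
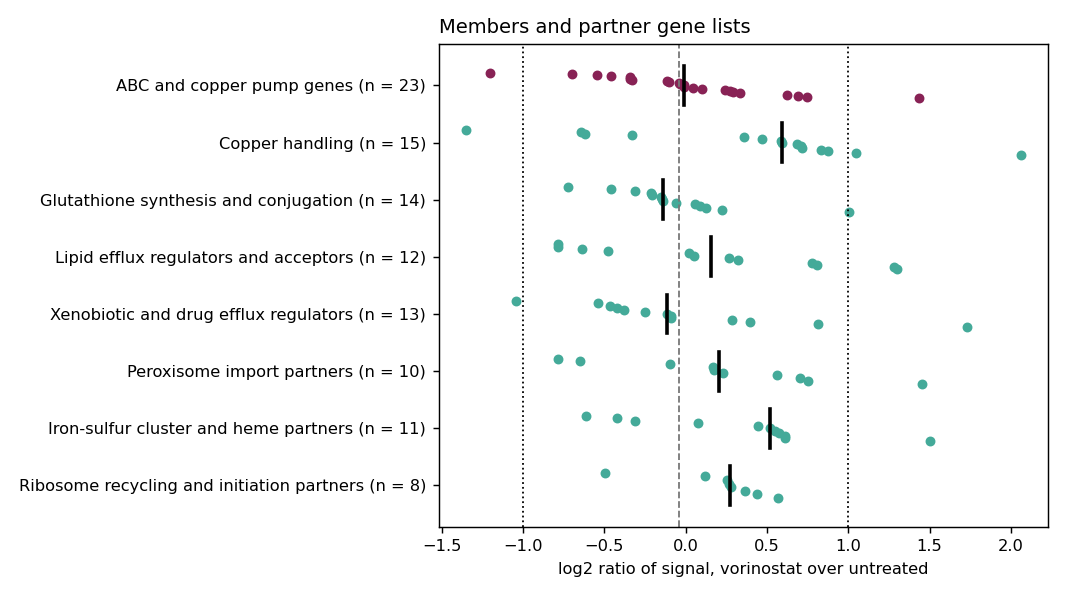
Log2 ratio of signal (vorinostat over untreated) of the measured genes in the family and in 7 partner lists (points; black bars are medians, the dashed line the median of all measured genes, dotted lines 2-fold). The family's median of -0.01 sits on the dashed line, and the copper handling list has the highest median, 0.59.

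The mitochondrial members ABCB6 and ABCB8 lay within 2-fold, as did 10 of 11 measured iron-sulfur cluster and heme genes on their brightest probe sets (median 0.52). GLRX5, a mitochondrial glutaredoxin of cluster transfer, had 1916 and 5421 (2.83-fold higher). ALAS1 and ISCU, of heme and cluster synthesis, were 1.53-fold higher each, and NUBP1 was 1.53-fold lower. The list of ABC proteins under other symbols had 3 measured genes, of which 0 were 2-fold apart: CFTR, the chloride channel, had 90.9 and 67.4, a bound of at least 1.32-fold lower, and the antigen peptide transporter genes TAP1 and TAP2 were 1.09-fold higher and 1.18-fold lower. Of the potassium channel partners of ABCC9, 1 was on the array and 0 were measured.

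Some members neighbour each other within 1 Mb, 7 pairs in all. ABCD3 lies near ABCA4, which was under the floor on both arrays, and ABCB1 lies beside ABCB4, under the floor as well. ABCC5 (log2 ratio of -0.46) and ABCF3 (0.62) are close on chromosome 3 and differed in direction, and ABCB8 (0.10) and ABCF2 (0.27) are close on chromosome 7. ABCA5, ABCA6 and ABCA8 share a cluster on chromosome 17 and were all under the floor. The nearest protein-coding neighbours of ABCA3 were RNPS1 (1.01-fold lower) and CCNF (1.15-fold higher). Of those of ABCD3, ARHGAP29 was 1.28-fold higher and F3 was under the floor. No measured neighbour of ABCD3 or ABCA3 was beyond 1.5-fold.

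How well probe sets of 1 gene repeat each other gives the only spread these arrays offer. It is a spread between probe sets and not between cultures, and its sources were not tested. Over 2428 genes with at least 2 probe sets above the floor on both arrays, the log2 ratios of the brightest pair differed by a median of 0.25, and by 0.67 at the 90th percentile. Among members, 7 genes had at least 2 measured probe sets. In 4 of them (ABCA2, ABCC1, ABCC10 and ATP7A) all went in 1 direction, and in 3 (ABCD4, ABCE1 and ABCF2) they did not. As reported, the log2 ratios of ABCD3, ABCA3, ATP7A, ABCG2 and ABCB1 are larger in size than that 90th percentile. Many genes outside the family pass that size too. Among 8277 measured genes ABCB1 ranked 792 from the top and ABCG2 952 from the bottom. The percentile covers disagreement between probe sets and not the difference between 2 cultures. Of the members just named all but ATP7A rest on 1 probe set, and only ABCD3 stayed above the reported percentile in every setting. ABCG2 fell under it in all 3 scalings (-0.57 with equal medians) and with the offset (-0.667, against 0.675). ABCB1 did so with the offset (0.63). With the floor at the 60th percentile ABCA3 (-0.15) and ATP7A (0.22) were under it.

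**Figure D5:**
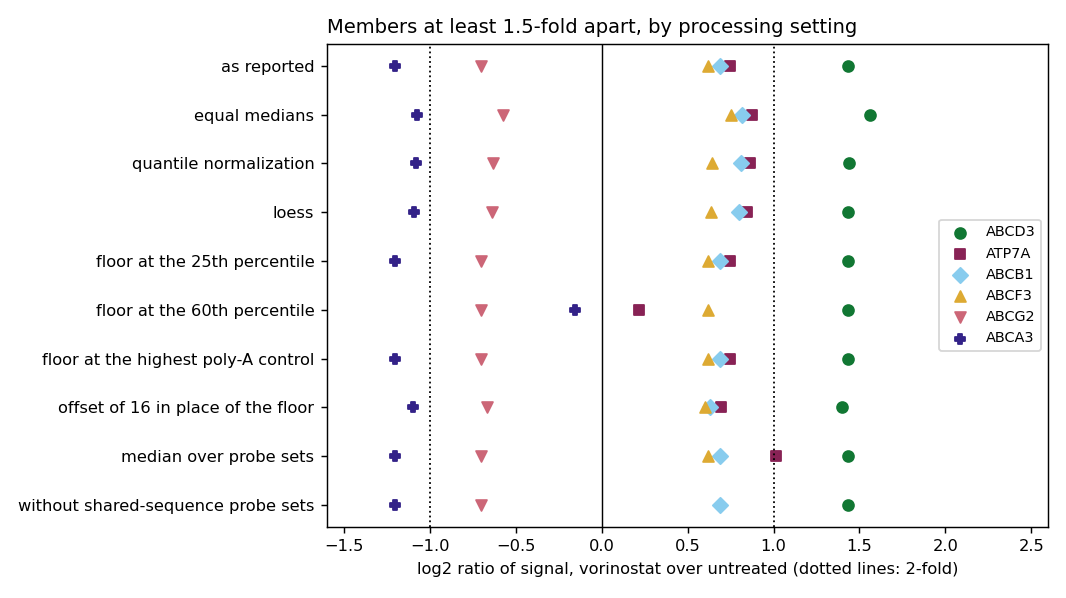
Log2 ratio of signal (vorinostat over untreated) of the 6 members at least 1.5-fold apart, as reported and under 9 other processing settings, with dotted lines at 2-fold; a missing point means the gene was not measured there. ABCD3 stays between 1.40 and 1.56, and ABCA3 moves inside 2-fold with the floor at the 60th percentile (-0.15), where its treated signal is under the floor.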

How the data were processed

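Per the labels' protocols, biotin-labelled cRNA from total RNA of each culture was read on 1 array. The authors deposited 1 intensity value per probe set and array, computed by MAS5 according to the submitters' processing notes; the version and scaling target are not given in the sources used here. Scaling was kept as deposited.

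Symbols came from the platform's annotation table, where 19065 of 22215 non-control probe sets had 1 symbol, 1043 several and 2107 none; RefSeq (GRCh38.p14) changed 0 member symbols. Lower signals were raised to the floor, then log2 was taken; a probe set under it on both arrays was not measured, and one under it on 1 array gave a bound. A gene was represented by its probe set of highest mean log2 signal. Ratios are vorinostat over untreated, and 2-fold and 1.5-fold are rules of size. The naming rule was to name every member, up to 4 genes with the largest ratios per partner list, and the nearest neighbours of members past 2-fold; genes outside it are marked in the text.

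The members and lists were chosen with earlier results of these data known. Alternatives were 3 scalings, 3 floors, an offset of 16 signal units, the median over probe sets, omission of shared-sequence probe sets (suffixes _x_at, _s_at, _a_at), and thresholds of 1.5-fold and 3-fold. The steps were tested on simulated data, with 3-fold changes planted only in genes far above the floor. Recovery of smaller changes, or of changes in dimmer genes such as ABCA3, was not tested. Python 3.11.15, numpy 2.4.6, pandas 2.3.3 and statsmodels 0.14.6 were used.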

Additional observations from a re-analysis of the deposited data

Results flagged for a closer look

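Some probe sets annotated to several genes list a member and so entered no comparison above, and both such probe sets had a higher signal in the treated than in the untreated array. The probe set annotated to both ABCB4 and ABCB1, which cannot be assigned to either, had 40.6 in the untreated array, under the floor, and 138.6 in the treated array, at least 2.01-fold higher. The probe set annotated to both ABCB8 and ASIC3 had 85.0 and 110.4, 1.30-fold higher. What these signals come from was not tested.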

How the results depend on the processing

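The counts of 1 member at least 2-fold higher and 1 lower held under the 3 scalings, the floors at the 25th percentile and at the highest poly-A control, and the omission of shared-sequence probe sets. The higher count was 2 with the median over probe sets, where ATP7A joined ABCD3, and the lower count was 0 when the floor was the 60th percentile, where the treated signal of ABCA3 was under the floor. The lower count was 3 with the offset in place of the floor, which also takes in ABCA11P and ABCB9, under the reported floor of 68.9. Of single members, ABCG1 had log2 ratios of -0.86, -0.79 and -0.67 under the lower floors (25th percentile, then poly-A control) and the offset, and ABCC9 0.47, 0.47 and 0.37. ABCG2 had -0.57 with equal medians, short of 1.5-fold. At 1.5-fold the counts were 4 and 2, and at 3-fold 0 and 0. The members' median log2 ratio was 0.11 with equal medians, where that of all genes was 0.08. Of 187 recomputed gene values 176 stayed within 0.25 of the reported log2 ratio, the median difference between probe sets of 1 gene, 11 moved further and 0 of the 2-fold members turned sign. In 17 of 23 genes the sign held in every setting that measured them; in ABCC1, ABCC4, ABCE1, ABCF1, ABCF2 and ABCG4 it did not. No paired analysis was possible because each group held 1 array, and no replicate could be left out. Levels under the floor have no order here.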
